A study of Mus musculus with 37 samples.

Results

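The 85 genes described here carry symbols of nuclear-encoded subunits of the 5 complexes of oxidative phosphorylation (OXPHOS). A list by symbol can miss a subunit and can hold a related gene. The 85 genes were chosen by symbol from the 48795 genes of a hippocampal RNA-seq count table, as protein-coding genes whose names begin with the subunit stems Nduf (A, B, C, S and V series, each followed by a number), Sdh, Uqcr, Cyc1, Cox4 to Cox8 or Atp5. No measured value entered this rule, although earlier results of these data were known when it was chosen. By symbol, 37 belong to complex I, 4 to complex II, 9 to complex III, 18 to complex IV and 17 to complex V. Hippocampi came from 3 Kdm1a-ifKO and 3 control male mice on a C57BL/6J background, with 1 library per mouse. Kdm1a-ifKO mice carry Kdm1a f/f alleles, with loxP sites around exons 5 and 6, and the Camk2a-creERT2 transgene, a tamoxifen-dependent recombinase that is active in principal neurons of the forebrain. Controls were littermates without the recombinase, and both groups received tamoxifen from 8 weeks of age. The age at which this RNA was collected was not stated in the sources used here. The tissue was not sorted, so interneurons, glia and vascular cells with an intact Kdm1a gene contributed RNA to every library. In such bulk RNA, fewer cells of a type and less RNA per cell cannot be told apart.

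Oxidative phosphorylation turns the electrons of NADH and succinate into ATP at the inner mitochondrial membrane. Complex I (NADH dehydrogenase) and complex II (succinate dehydrogenase) pass electrons to ubiquinone, complex III (the cytochrome bc1 complex) passes them to cytochrome c, complex IV (cytochrome c oxidase) reduces oxygen, and complex V (ATP synthase) uses the proton gradient to make ATP. Most subunits are encoded in the nucleus and imported, while a small set is encoded in the mitochondrial genome, so the complexes draw on both genomes. Complex II is the exception, with nuclear-encoded subunits alone. Neurons rely heavily on this pathway to fuel synaptic transmission and ion pumping.

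The libraries held between 18985542 and 19469947 counted reads. Kdm1a, the H3K4 demethylase gene targeted in these mice, was at 79.5, 81.1 and 79.6 CPM in controls and at 39.3, 36.9 and 38.4 CPM in Kdm1a-ifKO. The groups did not overlap, and Kdm1a fell by 1.07 on the log2 scale (SE 0.0559, adjusted p = 6.24e-08, edgeR quasi-likelihood test). CPM are read counts scaled to a common library size, here with the trimmed mean of M values (TMM), and fold changes are Kdm1a-ifKO over control. Control replicate 3 stood apart from the other libraries. It differed most from the other 2 controls (chi-square per degree of freedom 8.14 and 6.99, against 3.08 between those 2), and its counts rose most strongly toward genes of low GC content. Its values are therefore given separately where a result rests on it.

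In control hippocampus the members spanned a wide range of levels. Levels between genes are compared as TPM, transcript abundance per length of the merged exons. The median member was at 180.0 TPM, against 17.7 TPM over the 16752 tested genes with an annotated length. The highest were Atp5b, the catalytic beta subunit of ATP synthase, at 1129 ± 29.0 TPM (SD, n = 3) and Atp5a1, its alpha subunit, at 1093 ± 50.7 TPM. Cox6a1, the widely expressed isoform of subunit 6A of cytochrome c oxidase, was at 1092 ± 81.8 TPM. These 3 neighbours in the order did not differ beyond their spread. Cox4i1, the common isoform of subunit 4, followed with 978.0 ± 62.9 TPM and Cox6b1 with 911.7 ± 47.7 TPM. In complex III the leaders were Uqcr10 at 521.9 ± 33.5 TPM and Uqcrh at 375.0 ± 11.8 TPM. In complex I they were Ndufa4 at 497.6 ± 28.7 TPM and Ndufb9 at 491.5 ± 15.2 TPM. Ndufa4 was grouped by its symbol, although its protein is now counted as a subunit of cytochrome c oxidase. In complex II the flavoprotein gene Sdha was at 431.3 ± 14.0 TPM and the membrane anchor gene Sdhd at 285.9 ± 9.82 TPM.

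**Figure D1:**
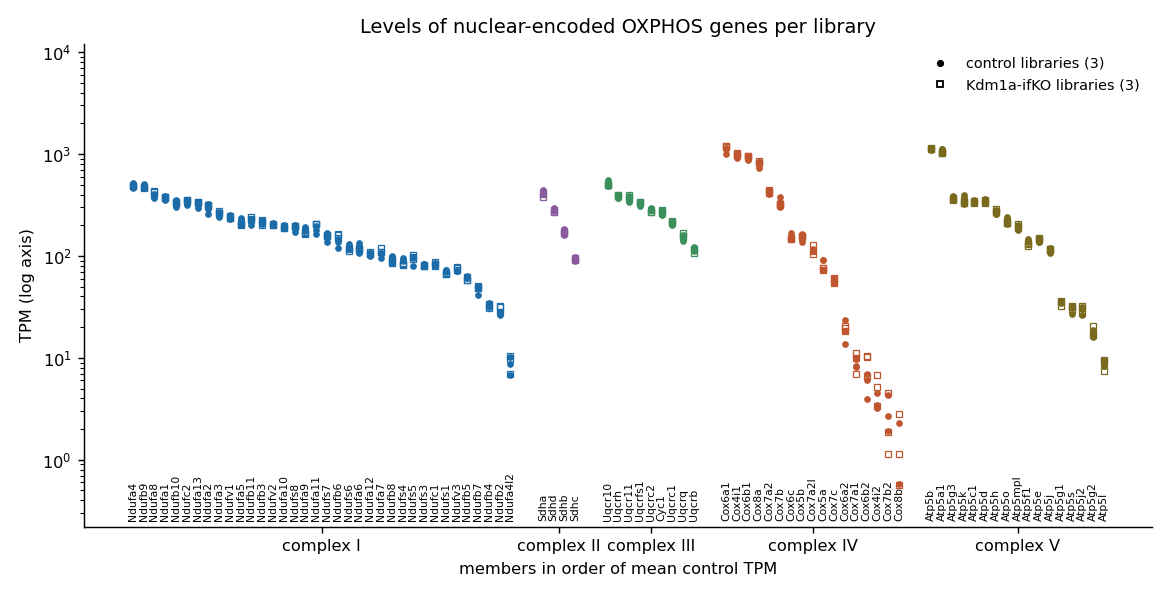
TPM (log axis) of the members shown in the 3 control (filled circles) and 3 Kdm1a-ifKO libraries (open squares), ordered within each complex by mean control TPM. Filled and open symbols lie on top of each other for nearly every gene, from Atp5b at 1129 TPM down to the tissue-restricted isoforms of complex IV, whose control means lay at 18.5 TPM or less; values of 0, among them all of Cox8c, cannot be drawn on this axis.

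The isoforms known from other tissues were low. Cox6a2 and Cox7a1, isoforms of heart and skeletal muscle, were at 18.5 ± 4.92 and 8.76 ± 0.857 TPM in controls, and Ndufa4l2, a hypoxia-induced paralogue of Ndufa4, was at 8.64 ± 1.72 TPM. Cox6b2, the testis isoform, was at 5.63 ± 1.52 TPM and Cox4i2, the lung isoform, at 3.73 ± 0.678 TPM. Cox7b2, Cox8b and Cox8c were the only members that did not pass the filter on low counts. Cox8c had 0 counts in all 6 libraries, and Cox8b had at most 5 counts in any library. Among the ubiquitous counterparts, Cox6b1, Cox4i1 and Cox8a were far higher, the lowest of these being Cox8a at 800.1 ± 58.4 TPM. Cox7a2 and Cox7b were lower than these, at 429.1 ± 20.1 and 341.3 ± 37.4 TPM in controls, but also far above Cox7a1 and Cox7b2.

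Shared sequence limits what can be read from some levels. Reads with a mapping quality of 30 or less had been discarded, which removes reads that align equally well to several places. For each member, the share of exonic 50-base words that occur again on the primary chromosomes of GRCm38 was therefore counted. It was 0 for 33 of the 85 members and 10% or more for 17. It was 0 for each of the 8 tissue-restricted isoforms. The highest shares were 44.7% for Cox7a2l, 285 of 713 words for Ndufs5, 30.8% for Atp5g2 and 28.1% for Uqcrb. For Cox7a2l most of the repeated words lay in a processed pseudogene, Gm6969, at chr12:24638072-24639017. For Ndufs5 they lay in the processed pseudogene BC002163 (chr16:42955560-42956063), and for Cox7c, at 25.9%, in Gm12338 (chr11:75599646-75600045). Atp5l, a subunit of the ATP synthase membrane stator, was at 8.72 ± 0.636 TPM, with 10.2% of its words repeated and 7 places in the genome that held 100 or more of them. Its merged exons span 6443 bases, against a median of 1550 over the 85 members, and TPM is scaled by this length. The part of either in its low value was not tested. Cox7a2l, with the highest share, was at 114.3 ± 2.43 TPM. How many reads this removed was not tested, and the same filter applied to all 6 libraries.

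None of the 82 tested members was called higher and none lower in Kdm1a-ifKO (edgeR quasi-likelihood test, Benjamini-Hochberg adjustment over 16799 genes, threshold 0.05). Over all tested genes, 8.85% were called in either direction at this threshold. DESeq2 also called 0 members. At an unadjusted p under 0.05, edgeR had 8 of the 82, 3 above and 5 below control. Among the 16752 tested genes with an annotated length, 4100 were under it. DESeq2 had 4 of the 82, against 3277 of 28781 genes with counts. The lowest adjusted p among members was 0.0866, for Ndufa9. The log2 fold changes of 43 members were above 0 and those of 39 below 0, with a median of 0.0089, against -0.0034 over all tested genes. Without control replicate 3 the median was -0.0295, and 17 members changed sign. Within this fit the estimates were narrow. The median standard error was 0.0613 on the log2 scale, and the 95% confidence interval lay between -0.3 and 0.3 for 73 members and between -0.5 and 0.5 for 78. These intervals do not cover the choice of fit. In the fits with GC and length offsets described below, 37 members changed sign, and 30 did with outlier-resistant offsets. The 3 values of one group lay wholly above or below those of the other for 12 members, 6 in each direction, which is 14.6% of the 82. Over all tested genes, 30.0% had groups that did not overlap.

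**Figure D2:**
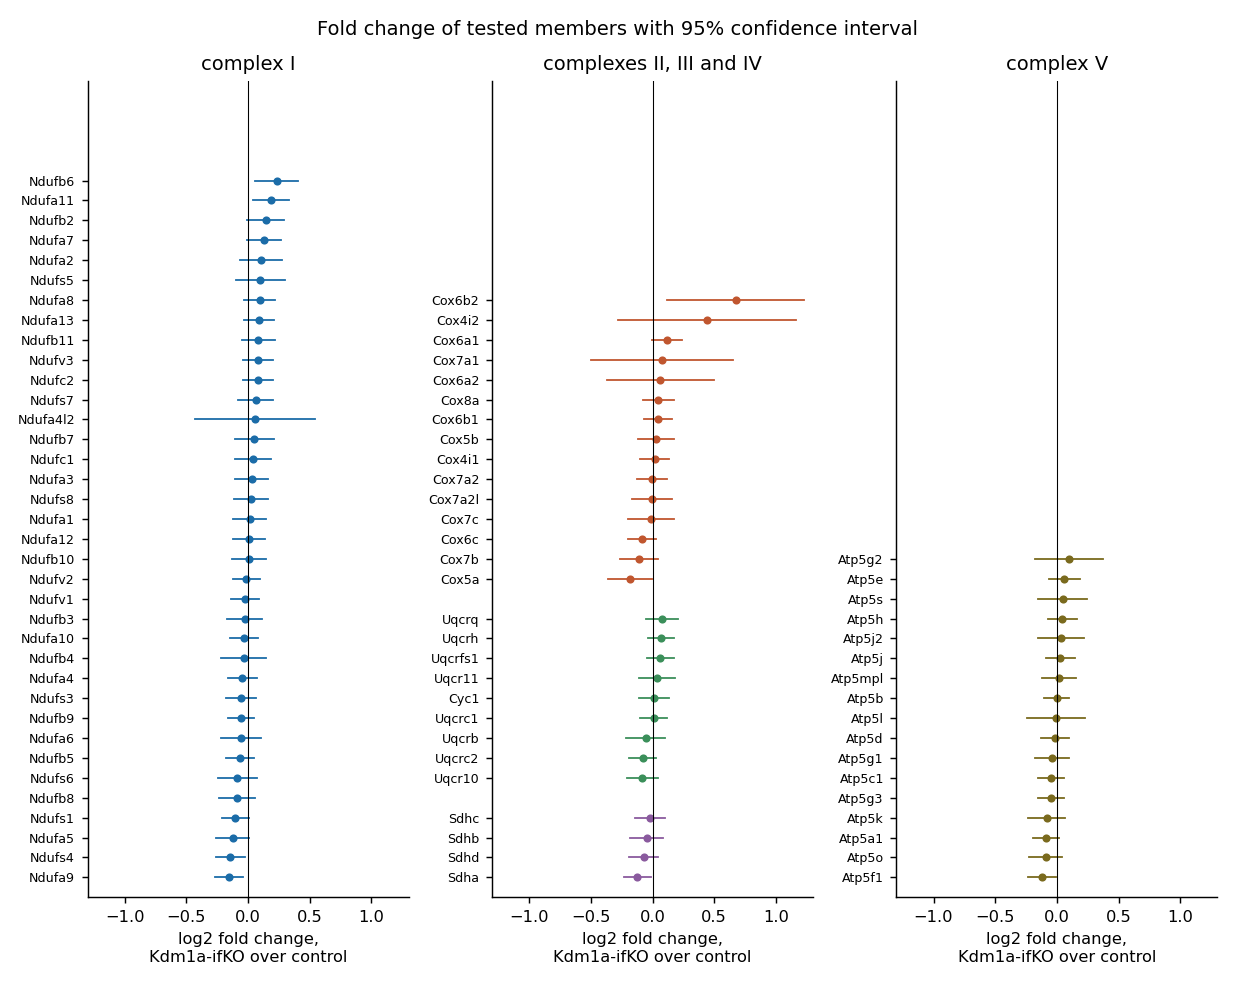
Log2 fold change (Kdm1a-ifKO over control) of the tested members shown, with bars for the 95% confidence interval, in order of size within each complex. Complex V is in the right panel, and complexes IV, III and II follow each other from top to bottom in the middle panel. Nearly all bars cross 0; the widest belong to the low isoforms Cox4i2, Cox6b2, Cox7a1, Cox6a2 and Ndufa4l2.

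Summed over the 85 genes, controls held 9241, 9313 and 8680 CPM and Kdm1a-ifKO held 9067, 8856 and 8952 CPM. The means were 9078 ± 346 and 8958 ± 106 CPM (SD, n = 3 each), which is 0.901% of the counted reads in both groups. The Kdm1a-ifKO values lay inside the range of the controls, whose lowest value was that of control replicate 3. This library was the lowest of the 6 for 44 of the 82 tested members and the highest for 2. The other 2 controls were together the lowest for 9 and the highest for 45. On the length-scaled measure the groups were at 20550 and 20670 summed TPM.

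**Figure D3:**
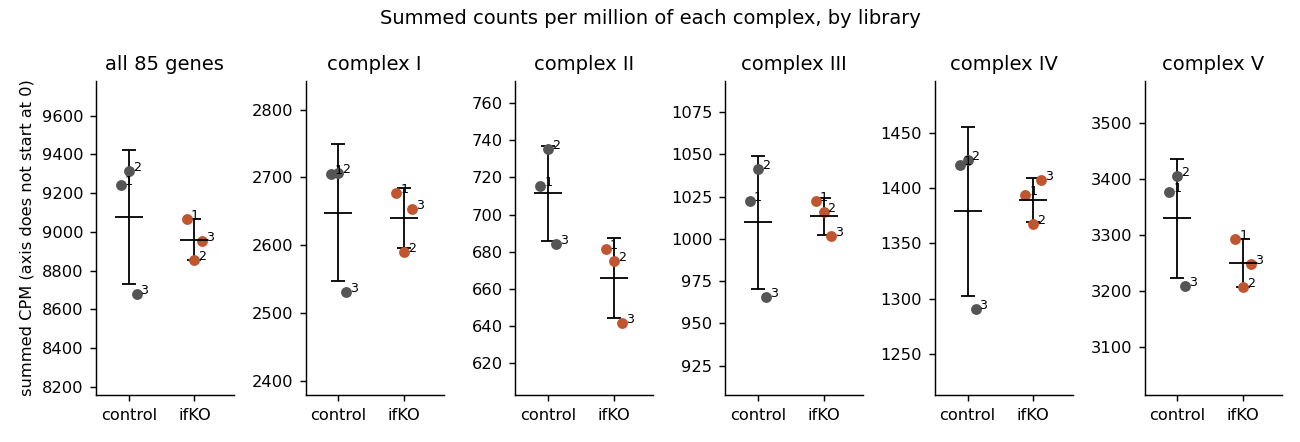
Summed CPM of all 85 genes and of each complex, per library (points, numbered by replicate), with the group mean (horizontal bar) and SD (whiskers, n = 3); the axes do not start at 0. Control replicate 3 is the lowest control in every panel, and only in complex II do all 3 Kdm1a-ifKO libraries fall below all 3 controls.

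Complex I held 37 members, all of them tested, with a median log2 fold change of 0.0096. The core subunits, which carry flavin mononucleotide and the iron-sulfur clusters, stayed close to control. Ndufv1, which binds NADH, was at 165.9, 160.9 and 152.1 CPM in controls and at 161.3, 154.8 and 155.0 CPM in Kdm1a-ifKO, with a log2 fold change of -0.02 (SE 0.0520). Ndufv2, Ndufs7 and Ndufs8 had log2 fold changes between -0.01 and 0.06. Ndufs1, the largest subunit, was at 140.5, 147.0 and 147.9 CPM in controls and 137.5, 132.0 and 135.9 CPM in Kdm1a-ifKO. Its groups did not overlap, with a log2 fold change of -0.10 (adjusted p = 0.224, edgeR). The log2 fold change of Ndufs1 was 0.01 with GC and length offsets and 0.01 with outlier-resistant offsets. Ndufs3 had -0.05 (adjusted p = 0.602, edgeR), with the lowest control at 44.97 CPM and the highest Kdm1a-ifKO library at 44.47 CPM.

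The extremes of complex I were accessory subunits. Ndufa9, at the junction of the matrix and membrane arms, was at 98.2, 101.0 and 93.99 CPM in controls and 89.6, 84.8 and 88.6 CPM in Kdm1a-ifKO. All 3 Kdm1a-ifKO values were below the lowest control, with a log2 fold change of -0.16 (95% confidence interval -0.27 to -0.04, adjusted p = 0.0866, edgeR). Without control replicate 3 the log2 fold change of Ndufa9 was -0.18 with an adjusted p of 0.0453, so its side of the threshold depends on that library. Ndufs4, whose loss causes Leigh-like disease in mice, was at 64.1, 61.0 and 62.0 CPM against 56.0, 55.4 and 57.8 CPM (log2 fold change -0.14, adjusted p = 0.124, edgeR). At the other end, Ndufb6 was at 24.1, 22.8 and 19.9 CPM in controls and 25.0, 26.7 and 26.9 CPM in Kdm1a-ifKO. The lowest control value was again that of control replicate 3, and the log2 fold change was 0.23 (adjusted p = 0.0957, edgeR). Ndufa11, a membrane-arm subunit, was at 53.9, 49.6 and 44.9 CPM against 56.5, 56.3 and 56.0 CPM (log2 fold change 0.19, adjusted p = 0.111, edgeR). Without control replicate 1 its adjusted p was 0.0406. Both genes that stood highest had their lowest control value in the same library.

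Complex II was the only complex whose 4 members all lay below 0, with log2 fold changes from -0.12 to -0.02 and a median of -0.06. Its summed level was 715.2, 735.0 and 684.4 CPM in controls and 681.4, 675.3 and 641.6 CPM in Kdm1a-ifKO. Sdha, the flavoprotein that oxidizes succinate, contributed most of it. Sdha was at 444.4, 463.0 and 435.8 CPM in controls and 418.2, 423.6 and 391.1 CPM in Kdm1a-ifKO. The groups did not overlap, with a log2 fold change of -0.12 (95% confidence interval -0.23 to -0.01, adjusted p = 0.154, edgeR). The iron-sulfur subunit Sdhb and the membrane anchors Sdhc and Sdhd had log2 fold changes of -0.05, -0.02 and -0.07, and their groups overlapped.

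In complex III, 9 members had log2 fold changes between -0.08 and 0.08, and the median was 0.01. Cyc1, cytochrome c1, was at 150.1, 152.2 and 137.2 CPM in controls and 148.8, 152.0 and 142.3 CPM in Kdm1a-ifKO. The Kdm1a-ifKO values lay inside the control range, and the log2 fold change was 0.01 (SE 0.0556). The Rieske iron-sulfur protein gene Uqcrfs1 had 0.06 and the core protein gene Uqcrc1 had 0.01. The lowest value was that of Uqcr10 with -0.08, the highest that of Uqcrq with 0.08, and no adjusted p in this complex was under 0.375.

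Complex IV had 15 tested members, with a median log2 fold change of 0.03. Cox4i1 was at 397.0, 392.3 and 354.7 CPM in controls and 382.4, 379.9 and 395.3 CPM in Kdm1a-ifKO, with a log2 fold change of 0.02 (SE 0.0540). Cox6a1 was at 202.8, 198.6 and 177.1 CPM against 208.3, 207.9 and 210.7 CPM. Its groups did not overlap, and its log2 fold change was 0.12 (adjusted p = 0.234, edgeR). Cox5a, a matrix-side subunit, had the lowest fold change of all members. It was at 48.01, 47.78 and 38.80 CPM in controls and 40.3, 37.9 and 40.5 CPM in Kdm1a-ifKO. Control replicate 3 lay within the Kdm1a-ifKO range and the other 2 controls above it. The log2 fold change was -0.18 (95% confidence interval -0.36 to -0.01, adjusted p = 0.187, edgeR), and without control replicate 3 it was -0.27 with an adjusted p of 0.0131. For Cox5a it was -0.10 with GC and length offsets (adjusted p = 0.641, edgeR) and -0.08 with outlier-resistant offsets (adjusted p = 0.738, edgeR).

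The highest fold change of all members was that of the testis isoform Cox6b2. It was at 1.67, 1.10 and 1.93 CPM in controls and 1.85, 2.79 and 2.88 CPM in Kdm1a-ifKO, which is between 21 and 56 reads per library. The groups overlapped, and the log2 fold change was 0.67 (95% confidence interval 0.12 to 1.23, adjusted p = 0.123, edgeR). The other tested tissue-restricted isoforms, Cox4i2, Cox7a1, Cox6a2 and Ndufa4l2, had log2 fold changes from 0.06 to 0.44 with intervals that crossed 0. A change of these isoforms smaller than their intervals was not detectable at this depth.

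Complex V had 17 members with a median log2 fold change of -0.01. Atp5b was at 1210, 1228 and 1174 CPM in controls and 1231, 1184 and 1194 CPM in Kdm1a-ifKO, and its log2 fold change was 0.00 (95% confidence interval -0.10 to 0.10). Atp5a1 was at 878.3, 888.7 and 819.4 CPM against 824.3, 794.2 and 811.5 CPM. One Kdm1a-ifKO value exceeded the lowest control, that of replicate 3, and the log2 fold change was -0.09 (adjusted p = 0.290, edgeR). Atp5c1, the rotating gamma subunit, had -0.05 (SE 0.0484). Atp5f1, a stator subunit, was lowest with -0.12. Its values were 139.3, 150.6 and 145.9 CPM in controls and 138.2, 133.9 and 129.4 CPM in Kdm1a-ifKO, without overlap (adjusted p = 0.185, edgeR). The log2 fold change of Atp5f1 was -0.02 with GC and length offsets and -0.002 with outlier-resistant offsets. Atp5g2, a gene for the c-ring, was highest with 0.10, at 6.77 to 7.79 CPM in controls and 6.95 to 8.68 CPM in Kdm1a-ifKO.

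The fold changes of the members followed GC content, as did those of all genes. Over all tested genes the median log2 fold change ran from -0.17 in the decile with the lowest exonic GC content to 0.11 in the decile with the highest. With exon length it ran from 0.03 in the shortest decile to -0.10 in the longest. The difference between the highest and the lowest decile was 0.28 with all libraries, 0.17 without control replicate 3 and 0.37 without control replicate 1. Control replicate 3 had the steepest slope, with a median log2 deviation of 0.21 in the lowest decile and -0.13 in the highest. The Kdm1a-ifKO libraries ran the other way, between -0.11 and -0.06 in the lowest decile and between 0.05 and 0.08 in the highest. Among the 82 tested members, Spearman's rho of the fold change was 0.43 with GC content and -0.37 with exon length, against 0.42 and -0.18 over all genes. These points share the same 6 libraries. Of the 13 members under 45% GC, 2 lay above 0, while of the 17 members over 55% GC, 13 lay above 0. Members were short, with a median of 1578 bases of merged exon against 4113 over all tested genes, and 35 of the 82 fell in the shortest decile.

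A fit with offsets for GC content and length changed the picture of single genes. Offsets from the mean trend of each library left a trend in the opposite direction, with a median log2 fold change of -0.13 in the highest GC decile of all genes. Under these offsets 9 members were called lower: Ndufa13, Ndufb9, Ndufv1, Sdhb, Cyc1, Cox6a1, Atp5a1, Atp5d and Atp5k. Of all genes, 7.20% were called lower in that fit. Offsets from an outlier-resistant trend, chosen after the data were seen, brought the median of every decile of all genes to within 0.02 of 0. Among the members the trend then ran the other way, with 9 of the 13 under 45% GC above 0 (median 0.05) and 3 of the 17 over 55% GC above 0 (median -0.06). In that fit Atp5a1 was the only member called, with a log2 fold change of -0.15 (adjusted p = 0.0241, edgeR), where 3.39% of all genes were called lower. The median over members was then -0.02, 33 lay above 0 and 49 below, and complex II stayed lowest with a median of -0.10. Which of the fits comes closest to the RNA levels was not tested.

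**Figure D4:**
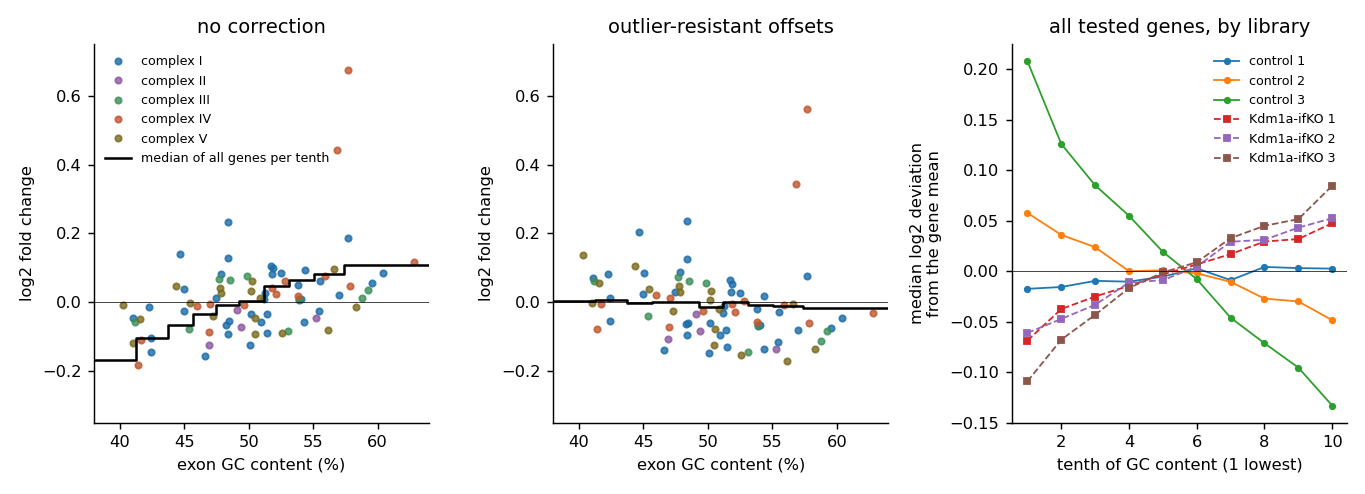
Left and middle, log2 fold change of the 82 tested members (points, coloured by complex) against exonic GC content, without correction and with outlier-resistant offsets; the black steps are medians over all tested genes per decile of GC content. Right, median log2 deviation of each library from the gene means, per decile of GC content. The steps rise from -0.17 to 0.11 without correction and stay within 0.02 of 0 with the offsets, and control replicate 3 has the steepest line.

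Overlapping genes touch many members. Of the 82, 29 overlap an annotated gene on the opposite strand when whole gene spans are compared, introns included. Whether counting used strand was not stated, so reads from any exonic stretch that a pair shares cannot be told apart. How many pairs share exons was not counted. Ndufs1 overlaps Eef1b2, Ndufa9 overlaps 1700018A23Rik, and Atp5j overlaps Gabpa, which encodes a transcription factor of many OXPHOS promoters. The median log2 fold change was -0.01 for the 29 and 0.01 for the 45 members without any overlapping gene.

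Promoters of the members were searched for short motifs. RefSeq promoters (GRCm38.p6, 250 bases before to 50 after the start) matched 66 of the 85 members. One from each complex and that of Ndufa9, the member with the lowest adjusted p, are shown, with capitals for matches on either strand to GCGCATGC (the core bound by NRF1), CCGGAAG (bound by ETS factors such as GABP) and AAGATGGC (bound by YY1). NRF1, GABP and YY1 are known regulators of OXPHOS genes. Of the 66 members, 37 held none of these 3 motifs in this window. Apart from that of Ndufa9, every promoter shown holds GCGCATGC. Only 10 of the 66 members hold it, so the promoters shown are not typical of their complexes.
Ndufa9 (chr6:126849095-126849394, minus strand): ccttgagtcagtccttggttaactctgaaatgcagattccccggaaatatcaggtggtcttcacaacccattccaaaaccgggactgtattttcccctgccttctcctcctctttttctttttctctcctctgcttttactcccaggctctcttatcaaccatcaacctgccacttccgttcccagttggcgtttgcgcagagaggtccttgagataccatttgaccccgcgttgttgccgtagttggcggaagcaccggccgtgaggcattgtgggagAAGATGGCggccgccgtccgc
Ndufa11 (chr17:56717512-56717811, plus strand): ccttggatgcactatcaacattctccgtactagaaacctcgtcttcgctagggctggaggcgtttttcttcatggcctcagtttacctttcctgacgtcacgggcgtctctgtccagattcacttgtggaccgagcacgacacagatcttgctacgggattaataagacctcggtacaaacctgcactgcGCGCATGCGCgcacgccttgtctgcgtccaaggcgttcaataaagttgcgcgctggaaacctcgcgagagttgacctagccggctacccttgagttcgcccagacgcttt
Sdhb (chr4:140961021-140961320, plus strand): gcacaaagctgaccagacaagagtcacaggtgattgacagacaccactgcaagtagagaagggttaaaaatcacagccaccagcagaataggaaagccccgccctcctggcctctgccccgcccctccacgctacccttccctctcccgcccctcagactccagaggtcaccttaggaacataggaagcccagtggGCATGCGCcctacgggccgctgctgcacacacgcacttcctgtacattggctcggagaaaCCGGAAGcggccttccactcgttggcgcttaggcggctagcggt
Uqcrc1 (chr9:108936398-108936697, plus strand): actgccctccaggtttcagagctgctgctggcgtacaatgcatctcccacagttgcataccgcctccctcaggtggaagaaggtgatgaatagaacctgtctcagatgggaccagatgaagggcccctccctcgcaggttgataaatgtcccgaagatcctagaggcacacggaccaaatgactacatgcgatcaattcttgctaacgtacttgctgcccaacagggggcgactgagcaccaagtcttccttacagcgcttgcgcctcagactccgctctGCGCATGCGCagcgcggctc
Cox6a1 (chr5:115348909-115349208, minus strand): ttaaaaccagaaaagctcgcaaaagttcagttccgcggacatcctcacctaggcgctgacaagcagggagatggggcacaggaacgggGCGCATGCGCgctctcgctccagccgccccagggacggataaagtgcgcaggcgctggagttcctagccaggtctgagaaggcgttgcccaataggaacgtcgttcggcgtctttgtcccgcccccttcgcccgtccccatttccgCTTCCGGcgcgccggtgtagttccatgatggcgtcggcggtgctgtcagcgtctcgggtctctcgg
Atp5k (chr5:108434350-108434649, minus strand): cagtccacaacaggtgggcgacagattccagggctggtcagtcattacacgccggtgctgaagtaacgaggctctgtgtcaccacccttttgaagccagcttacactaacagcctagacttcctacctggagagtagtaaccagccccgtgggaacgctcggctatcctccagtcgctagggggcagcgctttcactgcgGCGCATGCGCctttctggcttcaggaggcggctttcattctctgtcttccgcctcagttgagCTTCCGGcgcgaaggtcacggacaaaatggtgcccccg
GCGCATGC was present in 10 of the 66 members (15.2%), against 5.59% of the 11294 tested protein-coding genes with a promoter and 2.71% of all 32851 promoters. In Ndufa11, Uqcrc1, Cox6a1 and Atp5k it overlaps its own reverse complement, so that 10 capital letters are read on both strands. CCGGAAG was present in 16 members (24.2%, against 17.9% of tested genes and 8.86% of promoters). AAGATGGC was present in 9 (13.6%, against 4.73% and 2.75%), among them Ndufa9, Ndufs4, Ndufs7 and Atp5j. CAAGGTCA, an element of the ERR receptors, was present in 4, namely Atp5g3, Atp5l, Ndufs5 and Sdhd (6.06%, against 1.39% of tested genes and 1.56% of promoters), and TATAAA in 7 (10.6%, against 8.87% and 13.6%). GGGCGG, the Sp1 box, was present in 26 members (39.4%, against 67.2% and 35.7%). The median log2 fold change was 0.02 for members with GCGCATGC, 0.04 with CCGGAAG and 0.03 with AAGATGGC, against 0.00, -0.01 and 0.01 for members without them. A match is a run of letters and not evidence of binding.

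CTCF loops at the members came from ChIA-PET of sorted excitatory neuron nuclei, with 1 library and no knockout counterpart. Those mice were male and labelled wild type, carried Camk2a-creERT2 with the CAG-Sun1/sfGFP nuclear tag according to the methods, had received tamoxifen and were 12 weeks old. Of 85 members, 12 had a loop anchor over the 1 kb window centred on their start (14.1%, exact binomial 95% interval 7.51% to 23.4% for counting error only), against 17.1% of 14428 tested protein-coding genes. The strongest loops were at Ndufa4l2 with 191 paired-end tags, Ndufs7 with 102 and Atp5o with 97. The loop at Ndufs7, an iron-sulfur subunit whose promoter holds AAGATGGC, joined chr10:80243072-80251230 to chr10:80173320-80177843, 71.6 kb apart. The anchor at Atp5o reached 353.2 kb away. The 12 members with an anchor had a median log2 fold change of 0.04, and the other 70 tested members had 0.00.

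The mitochondrially encoded subunits of the same complexes were examined after their values were seen, since the table held reads for them although counting was described for nuclear chromosomes. In all, 4889964 reads lay on 37 mitochondrial genes, between 4.09% and 4.6% of each library, highest in control replicate 3. Of the 13 protein-coding genes, 7 had 20377 reads or more in every library, up to 169301 for mt-Co1, a catalytic subunit of complex IV, in control replicate 3. The other 6, mt-Co2, mt-Atp8, mt-Atp6, mt-Co3, mt-Nd3 and mt-Nd4l, had at most 62. These 6 lie next to each other on the mitochondrial genome. Of their 50-base words, 99.0% or 100% occur again in the nuclear genome, at chr1:24612404-24615565, while none of mt-Nd1, mt-Nd6 and mt-Cytb do. The shares were 62.2% for mt-Nd4 and 51.1% for mt-Co1, which nevertheless had 67548 and 155011 reads or more in every library, and 8.29% and 7.61% for mt-Nd2 and mt-Nd5. The first 60 bases of mt-Co2 (chrM:7013-7072) show this identity, since the same letters stand on the minus strand of chromosome 1 at chr1:24615506-24615565.
mt-Co2: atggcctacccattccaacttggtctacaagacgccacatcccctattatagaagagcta
Reads from such a stretch align equally well to both places, so no expression level is read from the values of these 6 genes.

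**Figure D5:**
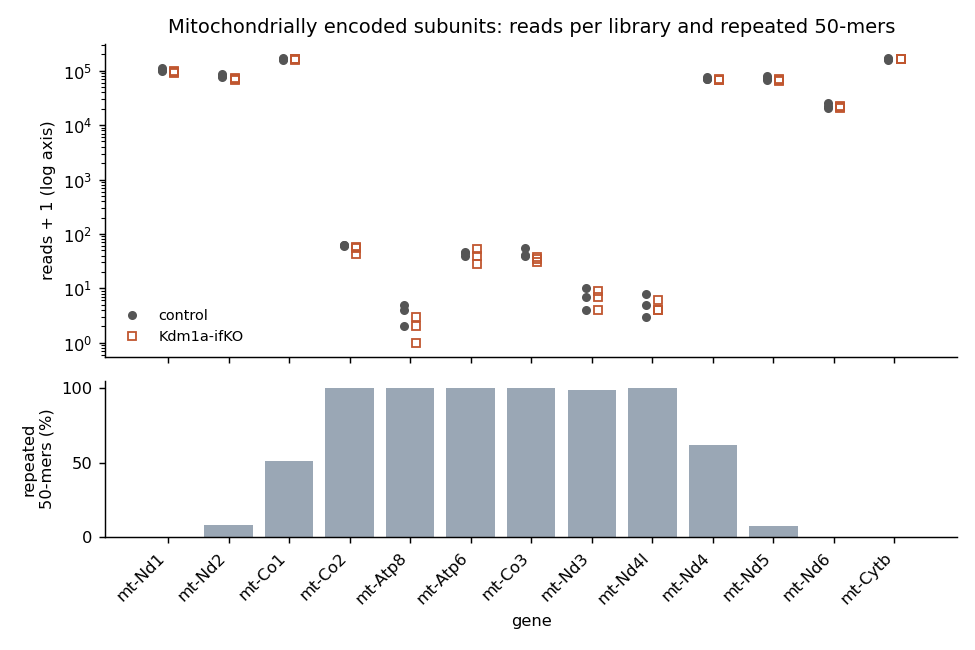
Top, reads plus 1 (log axis) of the 13 mitochondrially encoded subunits in the 3 control (circles) and 3 Kdm1a-ifKO libraries (squares), in genome order. Bottom, percent of the 50-base words of each gene that occur again in the genome. The 6 genes at 99.0% or 100% are those with at most 62 reads.

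Of the 7 mitochondrially encoded subunits with high counts, 1 was called lower and 0 higher, where 8.85% of all tested genes were called in either direction. The called gene was mt-Nd2, a subunit of the proton-pumping arm of complex I. It was at 3989, 4140 and 4698 CPM in controls and 3624, 3675 and 3506 CPM in Kdm1a-ifKO. The groups did not overlap, with a log2 fold change of -0.25 (SE 0.0603, adjusted p = 0.0220, edgeR). The highest value was that of control replicate 3. The exonic GC content of mt-Nd2 is 35.7%, and under the outlier-resistant offsets its log2 fold change was -0.02 (adjusted p = 0.809, edgeR). The call of mt-Nd2 was also lost without Kdm1a-ifKO replicate 1 (adjusted p = 0.0719) or replicate 3 (adjusted p = 0.107). mt-Nd1, mt-Nd4 and mt-Nd5 had log2 fold changes of -0.17, -0.12 and -0.17 with adjusted p of 0.117, 0.146 and 0.109 in edgeR. These became 0.02, 0.10 and 0.02 with outlier-resistant offsets (adjusted p = 0.815, 0.186 and 0.778, edgeR). Without offsets, mt-Nd1 and mt-Nd5 were called lower when no count filter was used (adjusted p = 0.0302 and 0.0272, edgeR). They were also called lower without control replicate 1 (adjusted p = 0.0495 and 0.0491, edgeR). mt-Co1 had -0.03 and mt-Cytb, the central subunit of complex III, -0.06. For mt-Nd6, encoded on the other strand, the log2 fold change was -0.12 (adjusted p = 0.410, edgeR) without offsets and 0.15 (adjusted p = 0.0313, edgeR) with outlier-resistant offsets, so its direction turned with the correction.

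Genes that build or serve the complexes held a few calls. For these and the lists that follow, the share called over all tested genes was 8.85% in either direction. Of the 14 complex I assembly factors, 0 were called (median log2 fold change -0.04, range -0.23 to 0.11). The same held for 4 of complex II, from -0.20 for Sdhaf3 to 0.10 for Sdhaf1, and 3 of complex V. Of 6 for complex III, 1 rose and 1 fell. Uqcc2, needed for cytochrome b synthesis, was at 41.3, 39.6 and 39.2 CPM in controls and 46.6, 47.7 and 50.1 CPM in Kdm1a-ifKO (log2 fold change 0.27, adjusted p = 0.0146, edgeR). Ttc19, which clears fragments of the Rieske protein from complex III, was at 111.4, 117.3 and 117.8 CPM against 103.7, 94.8 and 96.1 CPM (log2 fold change -0.23, adjusted p = 0.0176, edgeR). The call of Uqcc2 was lost with outlier-resistant offsets (log2 fold change 0.17, adjusted p = 0.0724, edgeR) and with mean-trend offsets (0.10, adjusted p = 0.293, edgeR). It was also lost without control replicate 2 (adjusted p = 0.0583) or Kdm1a-ifKO replicate 3 (adjusted p = 0.0851). That of Ttc19 was lost without control replicate 2 (adjusted p = 0.0605) or Kdm1a-ifKO replicate 2 (adjusted p = 0.0632) or 3 (adjusted p = 0.0861). The 18 tested complex IV factors had log2 fold changes from -0.43 to 0.32. Of these, 1 was called: Coa5 fell, from 102.5 ± 3.00 to 88.0 ± 3.63 CPM (log2 fold change -0.22, adjusted p = 0.0225, edgeR). It lost its call without control replicate 2 (adjusted p = 0.0794) or Kdm1a-ifKO replicate 1 (adjusted p = 0.0897) or 2 (adjusted p = 0.0745).

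Of 15 tested genes for electron carriers and coenzyme Q synthesis 0 were called, with values from -0.19 for Coq7 to 0.20 for Etfb. Of 16 genes of the tricarboxylic acid cycle, 0 were called, 3 lay above 0 and the median log2 fold change was -0.05. Its extremes were Dld, the shared E3 subunit of the 2-oxoacid dehydrogenases, with -0.17 (adjusted p = 0.0688, edgeR) and Suclg2 with 0.24 (adjusted p = 0.233, edgeR). Of 77 tested mitochondrial ribosomal protein genes, 1 was called, Mrpl38 with 0.24 (adjusted p = 0.0326, edgeR), and the median was -0.01. That call of Mrpl38 was lost in DESeq2 (adjusted p = 0.0675), and without control replicate 2 or 3 or Kdm1a-ifKO replicate 1 or 3 its adjusted p was 0.0523 to 0.166. Its log2 fold change was 0.14 (adjusted p = 0.148, edgeR) with outlier-resistant offsets and 0.05 (adjusted p = 0.664, edgeR) with mean-trend offsets. Of 82 tested cytosolic ribosomal protein genes 0 were called, with a median of 0.09 and 72 above 0. In glycolysis, 1 of 16 rose, the astrocyte-enriched aldolase gene Aldoc with 0.20 (adjusted p = 0.0258, edgeR), and the median was -0.03. Without control replicate 2 or any one Kdm1a-ifKO replicate, the adjusted p of Aldoc was 0.0551 to 0.170. With GC and length offsets from the mean trend its log2 fold change was 0.10 (adjusted p = 0.221, edgeR).

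Among 14 regulators of mitochondrial biogenesis, 2 fell. Ppargc1b, a coactivator of nuclear receptors, was at 8.05, 7.56 and 7.95 CPM in controls and 5.09, 6.65 and 4.06 CPM in Kdm1a-ifKO (log2 fold change -0.58, adjusted p = 0.0437, edgeR). Yy1 was at 31.9, 33.5 and 34.2 CPM against 27.1, 27.2 and 28.2 CPM (log2 fold change -0.27, adjusted p = 0.0205, edgeR). DESeq2 called neither, with adjusted p of 0.0530 for Ppargc1b and 0.0513 for Yy1. The call of Ppargc1b was lost on leaving out any one library other than Kdm1a-ifKO replicate 2 (adjusted p 0.0736 to 0.161), and that of Yy1 without control replicate 2 or Kdm1a-ifKO replicate 1 or 2 (0.0521 to 0.0759). The related coactivator Ppargc1a had -0.17, Nrf1 0.13, Gabpa -0.04 and Esrra 0.15, none of them called.

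The one large change near the pathway was that of Ucp2, an uncoupling-family carrier of the inner membrane that is abundant in microglia. Ucp2 rose from 20.97, 16.96 and 20.69 CPM in controls to 47.9, 48.3 and 50.7 CPM in Kdm1a-ifKO. The groups were far apart, with a log2 fold change of 1.33 (SE 0.0810, adjusted p = 2.62e-07, edgeR), and the call held under every alternative tried. The other 8 tested uncoupling and nucleotide carriers lay below 0, down to -0.14 for Vdac3 (adjusted p = 0.175, edgeR). Ucp2 overlaps Dnajb13 on the opposite strand. Microglial markers were higher as well, with a median log2 fold change of 0.33. All 8 of 8 lay above 0, with a summed level of 335.3 to 366.0 CPM in controls and 383.5 to 492.2 CPM in Kdm1a-ifKO and no marker at 0, and Cx3cr1, Tmem119 and Csf1r were called higher. All of these calls were lost without control replicate 1 or 2 or Kdm1a-ifKO replicate 3 (adjusted p 0.0554 to 0.120, edgeR). With outlier-resistant offsets those of Tmem119 (adjusted p = 0.127, edgeR) and Csf1r (adjusted p = 0.0921, edgeR) were lost. The part of these markers in the change of Ucp2 was not tested.

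Markers of other cell types were checked beside the members. Astrocyte markers summed to 4584 to 5225 CPM in controls and 5101 to 5364 CPM in Kdm1a-ifKO, 2 of 8 being called higher (Slc1a3 and Sox9). The call of Slc1a3 was lost without control replicate 1 or 2 or Kdm1a-ifKO replicate 1 or 3 (adjusted p 0.0503 to 0.0960, edgeR). Excitatory neuron markers summed to 7304 to 7729 and 7133 to 7888 CPM, with Neurod6 among those called lower, and interneuron markers to 875.1 to 944.8 and 843.6 to 879.5 CPM, with Vip and Npy called lower. The call of Vip was lost with outlier-resistant offsets (adjusted p = 0.178, edgeR) and without Kdm1a-ifKO replicate 1 (adjusted p = 0.0630, edgeR) or 3 (adjusted p = 0.0548, edgeR). Oligodendrocyte, endothelial and ependymal or choroid plexus markers had 0 calls. The defining markers of hippocampal neurons, such as Slc17a7, Camk2a and Prox1, were present in all libraries. Their part in the values of the members was not tested.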

How the data were processed

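RNA-seq came from the hippocampi of 3 control and 3 Kdm1a-ifKO mice. The deposited values are raw read counts per Ensembl gene, which the authors obtained with cutadapt 1.18, HISAT2 2.1.0 (GRCm38, mm10), a mapping quality filter over 30 and HTSeq 0.11.1 (versions from the study's methods and the submitters' processing notes). The ChIA-PET file holds counts of paired-end tags per CTCF loop, made by the authors with ChIA-PIPE (mm10), at least 3 tags per loop. Symbols, exon lengths and GC content came from GENCODE M21 and GRCm38, which matched 48349 of 48795 identifiers. A second identifier of Atp5o had no row in the table.

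All genes were tested in edgeR 4.0.16 (R 4.3.3): low counts removed by filterByExpr, TMM scaling, the robust quasi-likelihood test with genotype as sole term, Benjamini-Hochberg adjustment, threshold 0.05. TPM used merged exon lengths. Depth was 18985542 to 19469947 counts per library, and the values are from separate mice, so p-values measure the spread between these mice. The fit was checked on simulated data, with changes given to genes drawn from all tested genes and not from the members. It recovered 14 of 50 changes of 0.3 on the log2 scale and 35 of 50 of 0.5. Alternatives were DESeq2 1.42.0, its size factors, upper-quartile factors, other count filters, a replicate block, GC and length offsets (mgcv 1.9.3) and each library left out. The outlier-resistant offsets, the mitochondrially encoded genes and the repeated 50-base words were added after seeing the data. Members, lists and motifs were chosen with earlier results of these data known. Named genes are the called members, in each complex the 2 highest by control TPM and those with the extreme fold changes, the core subunits, the tissue-restricted isoforms and the members filtered out. From other lists, called genes are named, and the extremes of some lists. Ndufa11, Ndufs4, Ndufs5 and others outside this rule are named for their values. No column of per-sample values was left unused. Some genes are not reported here by name and are left out of the plots that label genes.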

Additional observations from a re-analysis of the deposited data

How the results depend on the processing

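The counts of 0 members higher and 0 lower held with DESeq2, with its size factors, with upper-quartile factors, with at least 10 summed counts and with the replicate block. Without a filter on low counts 1 member was higher (Ndufb6, 28781 genes tested). Lower members numbered 9 with GC and length offsets, 7 with these offsets and the replicate block, 1 with outlier-resistant offsets and 3 (Ndufa9, Atp5a1, Atp5o) with these offsets and no control replicate 3. The median log2 fold change of the members was -0.0626 with GC and length offsets, -0.0636 with the block added and -0.0404 with outlier-resistant offsets and no control replicate 3. Leaving out 1 library gave 0 to 1 higher members (Ndufa11 without control replicate 1) and 0 to 2 lower members (Ndufa9 and Cox5a without control replicate 3). The difference in median log2 fold change between the highest and lowest GC decile, 0.28 as reported, was 0.17 to 0.37 on leaving out 1 library (lowest without control replicate 3, highest without control replicate 1), -0.13 with GC and length offsets, -0.13 with the block added, -0.0183 with outlier-resistant offsets and -0.00988 with these and no control replicate 3. Signs turned for 37 members with GC and length offsets, 36 with the block added, 30 with outlier-resistant offsets and 17 without control replicate 3. Among members called in those fits, signs turned for Ndufa13 (-0.17), Cyc1 (-0.23, and -0.23 with the block added) and Cox6a1 (-0.16) under GC and length offsets, and for mt-Nd6 under all 4 offset fits (0.19, 0.19, 0.15 and 0.17). Over all genes the calls were 1014 higher and 473 lower without offsets, 873 and 1206 with GC and length offsets, 1013 and 568 with the outlier-resistant offsets, and 1447 and 1090 without a count filter. With GC and length offsets and the block, 1024 of 16752 genes were called lower. With outlier-resistant offsets and no control replicate 3, 391 of 17041 were. Leaving out control replicate 3 alone gave 340 lower of 17091 genes. Leaving out control replicate 1 gave 876 higher of 17130. Kdm1a kept its call under every alternative. Deviations of same-numbered libraries correlated at -0.03, -0.09 and -0.14, and those of differently numbered libraries at -0.09 to 0.16. With 3 libraries per group, these values cannot decide whether the replicate numbers pair the samples. The block lost the calls of mt-Nd2, Ttc19, Coa5, Ppargc1b, Yy1, Aldoc and Mrpl38 (adjusted p 0.0524, 0.0544, 0.0609, 0.0560, 0.0513, 0.0752 and 0.0752). Depth limits the precision for the tissue-restricted isoforms, which had the widest intervals.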

Other observations

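Of the rows whose symbols carry an OXPHOS stem, 10 are processed pseudogenes and were left out of the members. Cox6c2 had 267 to 315 reads per library, Atp5k-ps2 52 to 82 and Ndufs6b 47 to 66, while Ndufb4c and Atp5l2-ps had 0 in all libraries. No explanation of these counts was tested.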
